A study of Callithrix jacchus with 39 samples.

Results

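The marmoset (Callithrix jacchus) is a small monkey of South America, and its colon was mapped for 2 histone marks, with maps of 7 other tissues for comparison. The colon libraries were taken by their titles: H3K27ac replicates 1 and 2 and H3K4me3 replicates 1 and 2, which are 4 of 31 ChIP-seq libraries. The other 27 libraries came from stomach, liver, pancreas, kidney, spleen, skeletal muscle and heart, with 2 libraries for each mark and tissue except H3K4me3 in heart, which had 1. The series holds 39 samples in all, and its 8 input samples were not analysed here. The labels of every group give tissue, mark and replicate number, and no genotype, treatment or age. They do not say whether 2 replicates came from different animals, which stretch of the colon was taken, or how much mucosa and muscle wall it held. In such bulk tissue, fewer cells of a type and less mark per cell cannot be told apart.

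H3K27ac, acetylation of lysine 27 of histone H3, marks active promoters and active enhancers. H3K4me3, trimethylation of lysine 4 of the same histone, is concentrated at promoters, so acetylated regions without it are commonly read as candidate enhancers. Promoters in use tend to be shared between tissues, whereas enhancers tend to be specific to a tissue or to related tissues. The colon wall holds absorptive and secretory epithelium, smooth muscle, connective tissue, nerves and immune cells, and the stomach, another hollow organ of the gut, is also built of epithelium and smooth muscle.

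Each list holds the positions of peaks called by the authors in 1 library on the calJac3 build, and a place missing from a list is one without a called peak, not one shown to lack the mark. Colon H3K27ac replicate 1 had 40507 peaks covering 36.9 Mb, with a median length of 668 bp. Colon H3K27ac replicate 2 had 35220 peaks covering 28.5 Mb, with a median of 608 bp. Colon H3K4me3 replicate 1 had 19355 peaks over 18.3 Mb, and replicate 2 had 22730 peaks over 25.6 Mb. Of the colon lists, 3 were longer than the median of the other tissues and H3K4me3 replicate 1 was shorter: the 14 other H3K27ac lists ran from 24590 to 51554 peaks with a median of 33842, and the 13 other H3K4me3 lists from 16386 to 24424 with a median of 21008. Read totals were not used here, so the depth behind each list is unknown and no counting interval is given. A longer list can hold more regions that no other list holds, and shares of restricted regions below are given with that in mind.

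The colon libraries were compared with each other and with every other library by the Jaccard index, the covered length shared by a pair of lists divided by the length covered by either. The 2 colon H3K27ac lists had an index of 0.562. Against stomach the index averaged 0.415 (range 0.376 to 0.449), against pancreas 0.323 and against skeletal muscle, the least alike, 0.236. Colon H3K27ac replicates were therefore more alike than any pair of colon and another tissue. For H3K4me3 the colon replicates had an index of 0.660, and pairs of colon and stomach ranged from 0.624 to 0.686. Some colon and stomach lists of H3K4me3 were thus more alike than the colon replicates were. The tissue label could not be checked against marker genes, since no gene annotation of this build was used here.

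A region was called reproducible when peaks of both colon H3K27ac replicates overlapped by at least 1 bp, and overlapping peaks were merged. This gave 25708 colon H3K27ac regions covering 33.1 Mb. Regions overlapped by an H3K4me3 peak of either colon library were classed as promoter-like and the rest as enhancer-like. Promoter-like regions numbered 14695 (57.2%), covered 21.0 Mb and had a median length of 1235 bp, and the longest spanned 9663 bp. Enhancer-like regions numbered 11013 (42.8%), covered 12.01 Mb and had a median length of 886 bp, with the longest at 6473 bp. Acetylated regions with H3K4me3 were thus both more numerous and longer in colon than those without it.

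The promoter-like class rested mostly on both H3K4me3 libraries. Of its members, 13202 (89.8%) carried a peak in both, 1260 (8.57%) in replicate 2 alone and 233 in replicate 1 alone. Replicates of H3K27ac differed more on the enhancer-like side. Among enhancer-like peaks of H3K27ac replicate 1, 50.8% were also present in replicate 2, and in the reverse direction 79.2% were. For promoter-like peaks the shares were 90.3% and 91.4%. Replicate 1 therefore held a large body of enhancer-like peaks that replicate 2 lacked, and these are left out of the reproducible regions.

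A colon region was called restricted when no peak of the 14 H3K27ac libraries of the other tissues overlapped it. Over all reproducible colon H3K27ac regions, 4402 of 25708 (17.1%) were restricted. The share was 36.2% (3983 of 11013) for enhancer-like and 2.85% (419 of 14695) for promoter-like regions. At the other end, 9969 promoter-like regions (67.8%) but 409 enhancer-like regions (3.71%) were acetylated in every one of the 7 other tissues. Most promoter-like colon regions were thus acetylated throughout the 8 tissues, and most enhancer-like ones were acetylated in few of them. The evidence for H3K4me3 moved with this: 1.64% of promoter-like regions with H3K4me3 in both colon libraries were restricted, against 11.3% of those with it in replicate 2 alone and 25.8% of those with it in replicate 1 alone.

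Enhancer-like regions became fewer with each further tissue up to 6. They were acetylated in 1 other tissue in 22.8% of cases, in 2 in 13.3%, in 3 in 9.84%, in 4 in 6.44%, in 5 in 4.28% and in 6 in 3.44%, and slightly more often, in 3.71%, in all 7. Their median length was 790 bp in restricted regions and 1065 bp in those found in all 7 other tissues. Their median distance to the nearest reproducible colon H3K4me3 region was 38.9 kb and 6.94 kb in the same 2 sets. The most widely shared enhancer-like regions of the colon were therefore longer and lay nearer to promoters than restricted ones. When a tissue counted only if both of its libraries overlapped the region, 5862 enhancer-like regions (53.2%) were found in no other tissue and 159 (1.44%) in all 7.

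**Figure D1:**
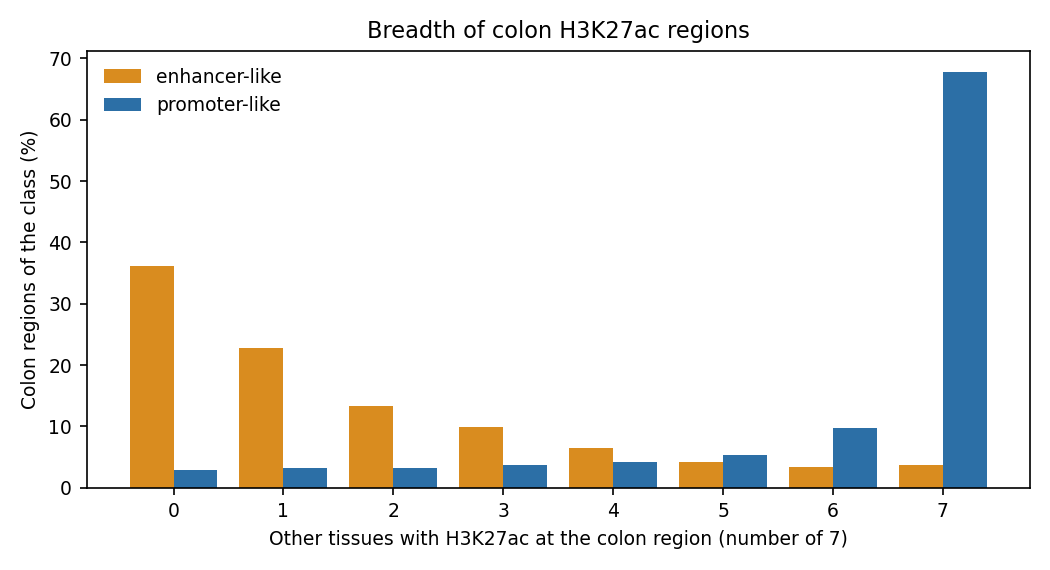
Share of colon H3K27ac regions of each class (vertical axis, percent of the class) by the number of other tissues in which at least 1 H3K27ac library overlapped the region (horizontal axis, 0 to 7). Enhancer-like regions peak at 0 tissues (36.2%), and promoter-like regions at 7 (67.8%).

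The class difference was tested over the 7 other tissues, with the mean of a tissue's libraries as its value. On average 20.0% ± 9.57 (SD, n = 7 tissues) of enhancer-like colon regions and 80.5% ± 6.27 of promoter-like colon regions were overlapped by another tissue's H3K27ac library. The difference, enhancer-like minus promoter-like, was -60.5 ± 4.18 percentage points and every tissue gave a negative value. Flipping the signs of the 7 tissue values in an exact permutation test, two-sided as all tests here, gave p = 0.0156, the smallest that 7 tissues allow, or 0.0438 after Benjamini-Hochberg adjustment over the 14 comparisons made. It was smallest for stomach at -52.9 points and largest for heart at -66.5 points. Promoter-like regions are longer, and averaged within 5 strata of region length the difference was -57.9 points.

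Stomach shared the most enhancer-like colon regions. Its 2 H3K27ac libraries overlapped 34.0% and 36.1% of them. Liver followed with 26.8% and 29.9%, pancreas with 23.0% and 24.7%, and kidney with 18.8% and 18.3%. Spleen overlapped 14.7% and 12.3%, skeletal muscle 11.6% and 10.7%, and heart 9.85% and 8.74%. The values of neighbouring tissues in this order did not overlap, so the ranking of the 7 tissues was the same in every choice of 1 library from each. The liver lists were the longest of the series, at 46317 and 51554 peaks, against 30803 and 31573 in stomach, so stomach ranked first with shorter lists.

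**Figure D2:**
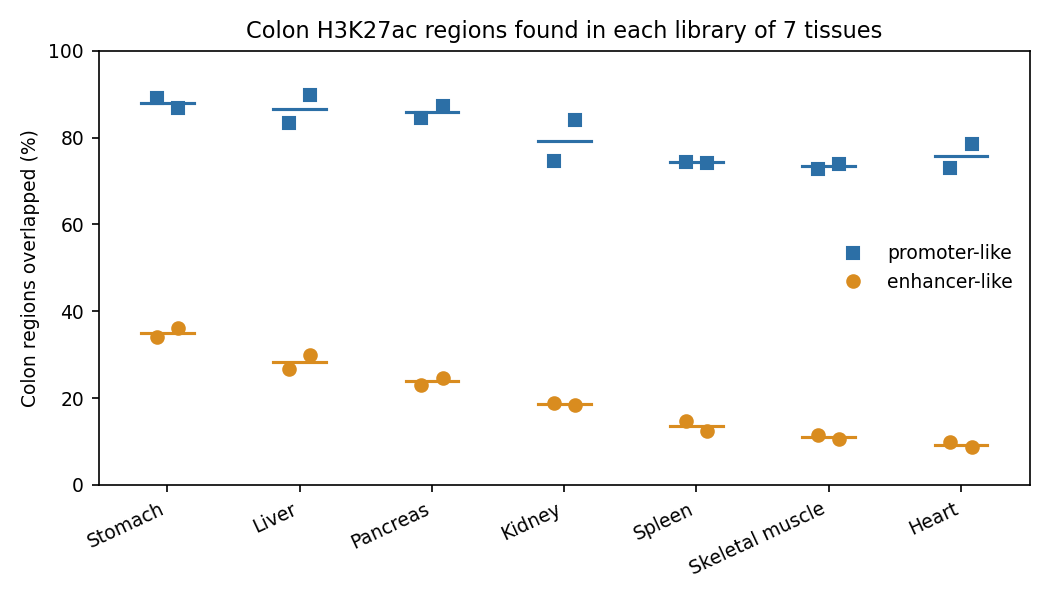
Percent of colon H3K27ac regions overlapped (vertical axis) by each H3K27ac library of 7 tissues (points, 2 per tissue, with the mean as a bar), for promoter-like and enhancer-like regions. Enhancer-like shares fall from 35.1% in stomach to 9.30% in heart, and promoter-like shares stay between 73.4% and 88.0%.

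The mean share in stomach was 17.6 points above the mean of the 6 others. This single-tissue comparison gave p = 0.143 (two-sided exact permutation test of which tissue is stomach, adjusted p = 0.333), the smallest p that 7 tissues allow, so the design cannot place it past 0.05. Without colon H3K27ac replicate 1 or 2 the difference was 14.9 or 10.9 points, and with every peak of either replicate it was 10.1 points. Promoter-like regions separated the tissues far less, with means from 73.4% in skeletal muscle to 88.0% in stomach.

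Regions shared with a single other tissue showed the same preference. Of the 2510 enhancer-like colon regions acetylated in exactly 1 other tissue, 1219 (48.6%) were shared with stomach, and both stomach libraries held 635 of these. Liver accounted for 497 (19.8%), kidney for 226, pancreas for 219, spleen for 146, skeletal muscle for 143 and heart for 60. After the set of all 7 tissues, at 409 regions, the most frequent sets of several tissues also contained stomach: pancreas with stomach at 353 regions, liver with pancreas and stomach at 301, and liver with stomach at 252. Every possible combination of the 7 tissues occurred at least once.

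Seen from the other side, 58.3% of the 7437 reproducible enhancer-like regions of stomach were found in a colon H3K27ac list (mean of the 2 lists). The share was 37.3% for heart, 32.7% for pancreas, 32.1% for kidney, 21.6% for spleen, 18.1% for liver and 13.01% for skeletal muscle. Liver, second in the first direction, was thus next to last in this one. It had 15472 enhancer-like regions, more than any other tissue, and heart had 4290, the fewest. The heart regions were classed with 1 H3K4me3 library. Colon H3K4me3 replicates 1 and 2 overlapped 15.1% and 22.9% of them, against 1.07% to 8.54% for the enhancer-like regions of the other tissues. Whether this class, or the number of heart regions, set the place of heart in this direction was not tested.

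Longer enhancer-like colon regions were shared more often. Those longer than the median of 886 bp were overlapped by another tissue in 23.1% of cases on average, and the rest in 16.9%, a difference of 6.18 ± 4.61 points (SD, n = 7 tissues). It was above 0 in 7 of 7 tissues, from 2.18 points in heart to 14.9 points in stomach (p = 0.0156 by exact sign flips, 0.0438 adjusted). Among regions under 500 bp, 46.8% were restricted and 23.7% were found in stomach. Among the 205 regions of at least 3000 bp, 12.7% were restricted and 66.3% were found in stomach. A longer region offers more bases to overlap: with the central 300 bp of each region in its place the difference was 3.23 points, and with an overlap of at least 50% it was 3.47 points.

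Enhancer-like regions close to a promoter were also shared more often. The median enhancer-like region lay 29.4 kb from the nearest reproducible colon H3K4me3 region, with the middle of the distribution between 8.76 and 77.0 kb. The 2956 regions within 10 kb were overlapped by another tissue in 26.6% of cases, and the 2077 regions over 100 kb away in 14.5%. The difference was 12.1 ± 2.78 points and was above 0 in 7 of 7 tissues (p = 0.0156 by exact sign flips, 0.0438 adjusted). The restricted share climbed from 26.8% within 5 kb to 56.2% beyond 250 kb, where 20.5% of regions were found in stomach. Near regions were slightly shorter than far ones, with medians of 855.5 and 926 bp. They more often carried H3K4me3 in another tissue, in 14.4% of cases against 5.20%, and without all such regions the difference was 8.67 points.

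**Figure D3:**
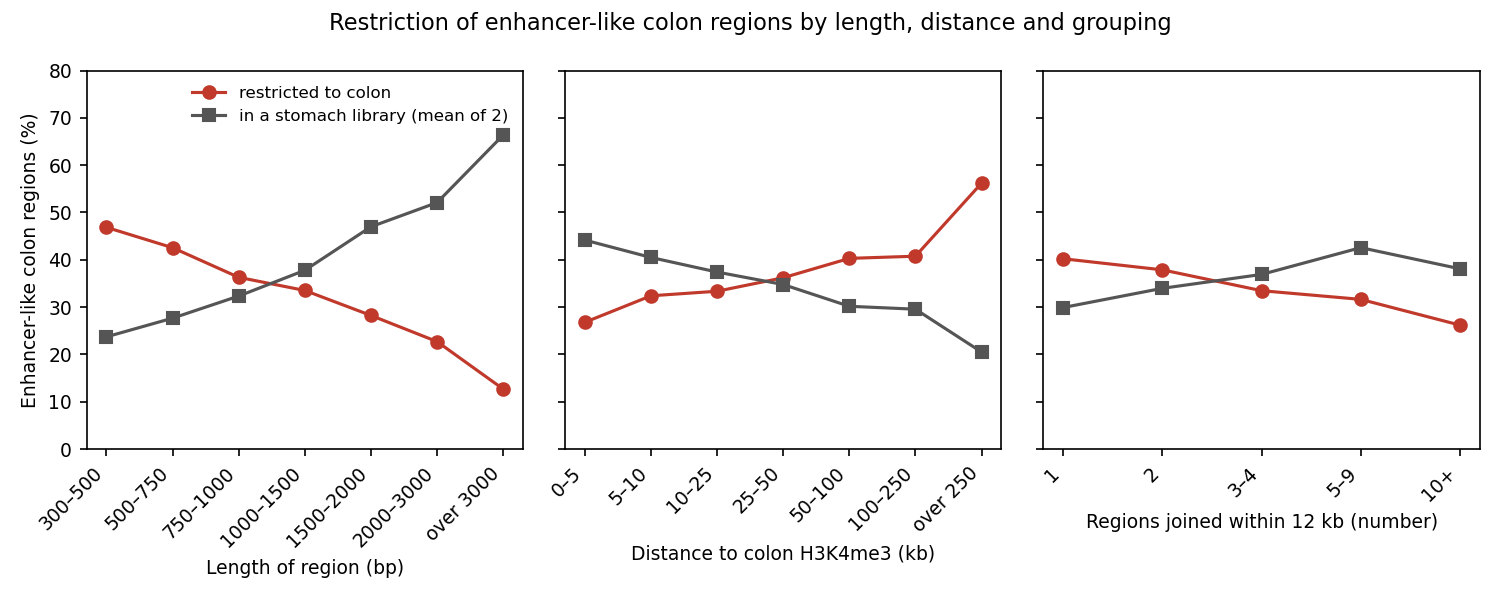
Percent of enhancer-like colon regions (vertical axis) that were restricted to colon, and percent found in stomach (mean of 2 libraries), by region length in bp, distance in kb to the nearest colon H3K4me3 region, and number of H3K27ac regions joined within 12 kb. The restricted share falls with length from 46.8% to 12.7% and rises with distance from 26.8% to 56.2%.

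Enhancer-like regions often lay in groups. Reproducible H3K27ac regions of either class were joined where the gap was at most 12 kb, which gave 15348 groups and single regions. There were 2390 groups of 3 or more regions, and the largest held 13. Only 541 of these groups (22.6%) held no promoter-like region. Of the enhancer-like regions, 46.3% lay in groups of 3 or more and 27.7% stood alone. Regions in such groups were overlapped by another tissue in 22.0% of cases and regions standing alone in 17.1%. The difference of 4.93 ± 2.04 points was above 0 in 7 of 7 tissues (p = 0.0156 by exact sign flips, 0.0438 adjusted). It was 2.62 points without colon H3K27ac replicate 2 and 2.51 points with every peak of either replicate. Grouped regions carried H3K4me3 in another tissue in 8.55% of cases and lone ones in 6.39%. Without all such regions the difference was 4.14 points. Since most groups held a promoter-like region, grouping overlaps with closeness to a promoter, and their parts in the difference were not tested separately.

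Grouping went the other way in the promoter-like class. Restricted promoter-like regions lay in groups of 3 or more in 49.4% of cases and shared ones in 26.96%. Restricted enhancer-like regions did so in 42.0% of cases and shared ones in 48.7%. These 4 shares are descriptions and were not tested.

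Restricted regions lay beside each other. Among 3185 neighbouring pairs of enhancer-like regions less than 5 kb apart, the neighbour of a restricted region was restricted in 67.2% of cases and the neighbour of a shared region in 18.5%. At gaps of 5 to 12 kb the shares were 44.96% and 27.8%, and at 12 to 50 kb they were 39.6% and 31.9%. At 50 to 100 kb they were 41.9% and 33.2%, at 100 to 500 kb 41.6% and 32.8%, and beyond 500 kb 37.9% and 42.5%. The difference between neighbours of restricted and of shared regions was thus widest below 5 kb, changed little from 12 to 500 kb and had the other sign beyond that. Whether such neighbours belong to a single acetylated stretch was not tested. Of the 966 groups with at least 3 enhancer-like regions, 116 (12.01%) had all of these restricted and 355 (36.7%) had none restricted.

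When restricted regions alone were joined within 12 kb, 5 groups had the greatest covered length. They were chosen for this pattern and are described without a test. The first, at chr5:108814664-108846687, spanned 32.0 kb and held 8 reproducible regions. Colon H3K27ac peaks covered 15.5 kb of it in replicate 1 and 12.1 kb in replicate 2, and colon H3K4me3 peaks covered 6.56 and 9.17 kb. None of the 14 other H3K27ac libraries had a peak there. H3K4me3 was called there in 2 other libraries, skeletal muscle replicate 2 and spleen replicate 2, over at most 0.945 kb.

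**Figure D4:**
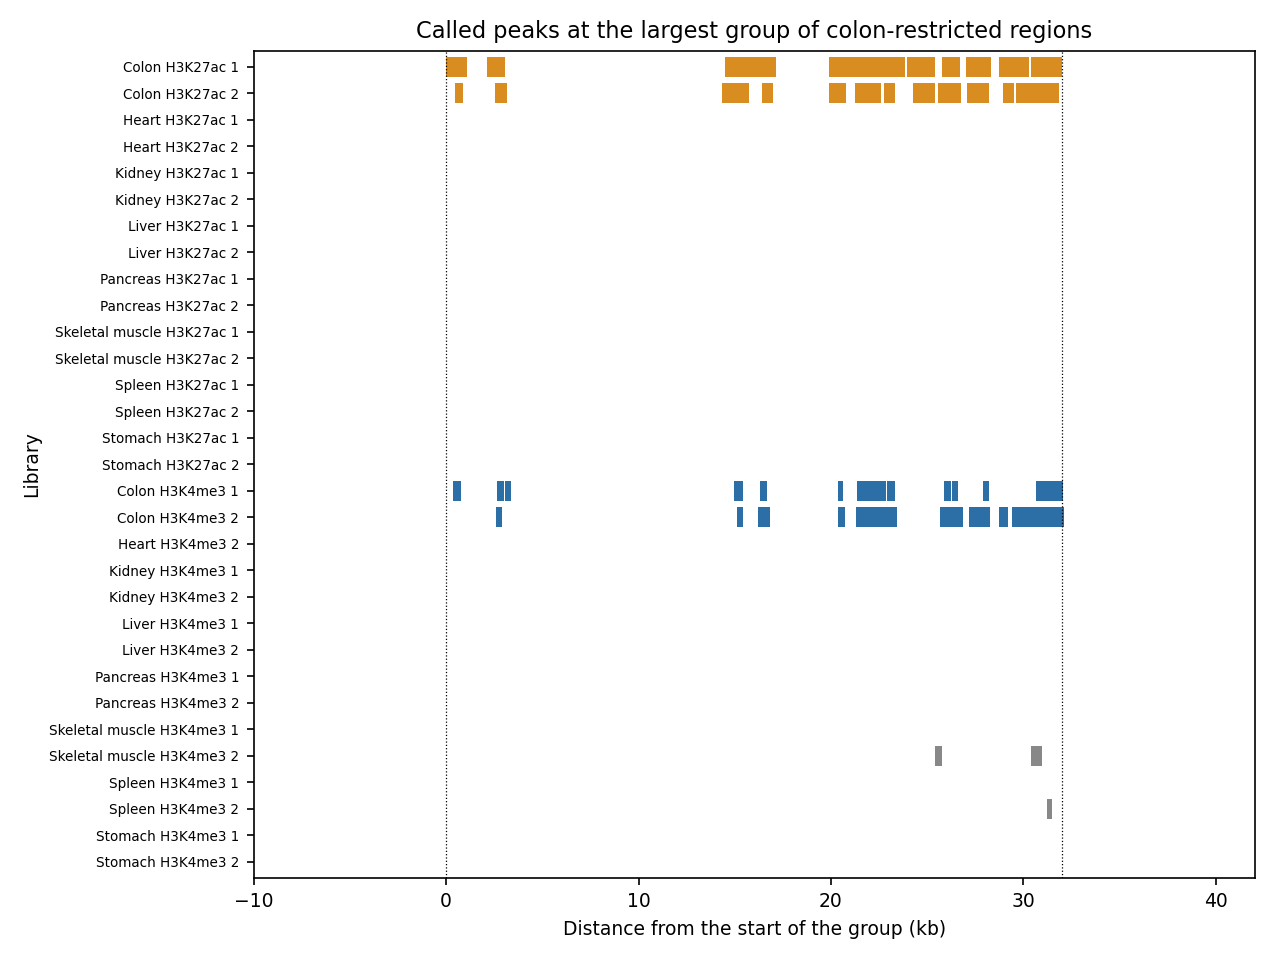
Called peaks of all 31 libraries (rows) across the largest group of colon-restricted regions, by distance in kb from its start, with 10 kb shown on each side and dotted lines at its ends. Colon H3K27ac peaks cover 15.5 and 12.1 kb and colon H3K4me3 peaks 6.56 and 9.17 kb, and among other libraries peaks appear in 2 H3K4me3 lists.

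The next groups differed in how much H3K4me3 they held. The group at chr3:44054480-44064592 spanned 10.1 kb, of which H3K27ac peaks covered 9.68 and 6.99 kb and H3K4me3 peaks 1.64 and 1.49 kb in the colon replicates. The group at chr6:114094630-114105160 spanned 10.5 kb with 6 regions and 8.53 and 6.54 kb of H3K27ac, and it had no H3K4me3 peak in any of the 15 libraries of that mark. Its nearest reproducible colon H3K4me3 region lay 380.0 kb away. This group was therefore a run of purely enhancer-like regions far from any reproducible colon H3K4me3 region.

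The remaining pair held H3K4me3 again. At chr8:28485854-28509900, 7 regions over 24.0 kb were covered by 8.52 and 7.11 kb of H3K27ac and by 2.49 and 5.10 kb of H3K4me3 in the colon replicates. H3K4me3 was called there in 4 other libraries, both of liver and 1 each of pancreas and stomach, over at most 0.829 kb. At chr7:60390909-60399769, 8.01 and 6.83 kb of H3K27ac and 1.86 and 2.85 kb of H3K4me3 were called in colon and nothing in the other 7 tissues.

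Some restricted promoter-like regions had both marks in colon and neither mark elsewhere. There were 139 with H3K4me3 in both colon libraries and in no library of another tissue. The longest, chr7:60390909-60398616, was 7708 bp and lay in the chromosome 7 group above. Those next in length were chr18:44579416-44584489 at 5074 bp, chr7:54005253-54010217 at 4965 bp, chr6:143900704-143904780 at 4077 bp and chr5:108834537-108838511 at 3975 bp, the last within the chromosome 5 group. H3K4me3 covered unlike parts of them. It took up 0.387 and 0.836 kb of the chromosome 18 region in replicates 1 and 2, but 3.08 and 2.87 kb of chr6:143900704-143904780. The first thus had H3K4me3 over a small part of its length, and the other had both marks over most of its length.

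The longest restricted enhancer-like region, chr3:44058126-44064592, spanned 6467 bp and ended the chromosome 3 group, 0.126 kb from an H3K4me3 region. The next, chr13:69686457-69691109 (4653 bp), differed between replicates, with 4.65 kb of H3K27ac in replicate 1 and 1.45 kb in replicate 2. By contrast chr11:18350072-18354333 (4262 bp) had 3.98 and 4.10 kb. Then came chr4:161893589-161897509 at 3921 bp, 131.2 kb from colon H3K4me3, and chr22:12042907-12046819 at 3913 bp, where 2 libraries of other tissues had up to 0.356 kb of H3K4me3.

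The longest enhancer-like regions shared with both stomach libraries and no other tissue were far longer in colon than in stomach. At chr4:108912161-108918633, which is also the longest enhancer-like region of the colon at 6473 bp, H3K27ac covered 6.44 and 5.07 kb in colon and 0.916 and 2.104 kb in stomach. At chr1:40990925-40995889 it covered 4.97 and 3.47 kb in colon and 0.944 and 1.03 kb in stomach, 494.1 kb from colon H3K4me3. At chr6:31923293-31927666 it covered 3.91 and 2.95 kb in colon and 0.662 and 0.810 kb in stomach. These were picked by their length in colon, so the direction of the difference follows from the choice.

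Enhancer-like regions of the colon seldom carried H3K4me3 elsewhere. Of 11013, 864 (7.85%) overlapped an H3K4me3 peak of another tissue, and among the 3983 restricted ones 21 (0.527%) did. Liver held 595 of the 864, and 321 carried H3K4me3 in liver alone. Liver H3K4me3 replicate 2 overlapped 568 and replicate 1 overlapped 238, so most of these rested on 1 library. Of the 321, 98.4% were acetylated in liver and 73.2% in stomach, against 28.6% and 39.5% of the 10149 with H3K4me3 in no other tissue. Liver replicate 2 also overlapped 13.1% of the enhancer-like regions of kidney and 10.4% of those of stomach. In both it was the highest of the H3K4me3 libraries from other tissues, so its reach was not particular to colon regions. It overlapped 27.1% of the enhancer-like regions of heart, which were classed with 1 H3K4me3 library. There colon replicate 2 and skeletal muscle replicate 2 also overlapped 22.9% and 22.8%.

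Promoter-like colon regions kept their H3K4me3 in most tissues. H3K4me3 was found in all 7 other tissues for 11089 (75.5%) and in none for 823 (5.601%). Of the 419 restricted promoter-like regions, 324 (77.3%) had H3K4me3 in no other tissue and 95 had it in at least 1. Both colon H3K4me3 libraries had a peak at 139 of the 324 and at 77 of the 95, and the rest had it in 1 colon library. At 14 of the 95 H3K4me3 was present in all 7 other tissues while acetylation was called in colon alone. These 14 were short, with a median of 626 bp.

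H3K4me3 was then taken on its own. There were 16686 reproducible colon H3K4me3 regions with a median length of 1267.5 bp, and 12760 (76.5%) were overlapped by H3K4me3 of all 7 other tissues. Restricted ones, overlapped by none of the 13 other H3K4me3 libraries, numbered 445 (2.67%) and were short, with a median of 672 bp. Colon H3K27ac overlapped 82.9% of the restricted regions and 85.8% of all. Both marks were confined to colon at 184 (41.3%) of the restricted regions, and 198 (44.5%) had H3K27ac in another tissue. At these 198, colon had H3K4me3 where another tissue had acetylation without it.

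Stomach was also the nearest tissue by H3K4me3. Its libraries overlapped 92.7% of colon H3K4me3 regions on average, followed by liver at 90.1%, kidney at 88.1%, pancreas at 83.4%, skeletal muscle at 82.5%, heart at 80.6% from its 1 library and spleen at 79.8%. Libraries of 1 tissue differed widely here, from 75.8% to 91.1% in pancreas and from 75.1% to 89.9% in skeletal muscle, so the libraries of pancreas and skeletal muscle lay on both sides of those of kidney, and only the first place of stomach held against that spread. Stomach was the sole partner of 182 regions, liver of 64 and kidney of 51. Heart was the sole tissue missing at 811 regions, again from 1 library, and spleen at 356.

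Colon H3K4me3 regions without acetylation were shared less. The 2373 regions without colon H3K27ac had a median of 799 bp, and the 14313 with it had 1364 bp. H3K4me3 of another tissue overlapped 71.2% of the first and 87.7% of the second on average, a difference of -16.5 ± 7.04 points that was negative in 7 of 7 tissues (p = 0.0156 by exact sign flips, 0.0438 adjusted). It ran from -6.47 points in stomach to -27.1 points in spleen. The acetylated share did not change evenly with breadth: it was 82.9% at restricted H3K4me3 regions, 63.8% at those shared with 5 tissues and 90.5% at those shared with all 7. Without colon H3K4me3 replicate 1 the difference was -25.6 points, and with every peak of either replicate it was -26.0 points.

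Of the regions without colon H3K27ac, 73.0% were acetylated in another tissue. The 3 longest had H3K4me3 in all 13 other libraries of that mark. At chr20:8867890-8871179 (3290 bp), 10 other H3K27ac libraries had a peak, from heart, kidney, liver, skeletal muscle and stomach. At chr8:82904163-82907432 (3270 bp) there were also 10, among them both of heart, pancreas, skeletal muscle and stomach. At chr3:85450571-85453394 (2824 bp) there were 4, those of pancreas and spleen. At these 3 regions colon carried H3K4me3 without a called H3K27ac peak in either replicate.

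A few regions were acetylated in all 14 other H3K27ac libraries and in no colon library. Of 10147 stretches of genome covered in all 14, colon lacked 168 (1.66%). The same count was 451 (4.26%) for skeletal muscle, 182 for spleen and 109 for heart, and it was 30 for kidney, 20 for stomach, 11 for liver and 6 for pancreas. The stretches missing in colon were short, with a median of 235.5 bp against 432 bp for those present, and 78 lay within 1 kb of a colon H3K27ac peak. H3K4me3 was called in colon at 100 (59.5%) of them, in both libraries at 55, whereas 96.9% of the stretches present in colon had it. The longest were chr13:49832748-49833861 (1114 bp), with 1.06 and 1.11 kb of H3K4me3 in the colon replicates, chr6:54987102-54987906 (805 bp), with 0.598 and 0.805 kb, and chr17:35222992-35223785 (794 bp), with H3K4me3 in replicate 2 alone.

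Colon regions were spread over all chromosomes with some bias. Enhancer-like regions made up the smallest part of colon H3K27ac regions on chromosome 22 (25.7%) and on X (27.9%). The restricted share of enhancer-like regions was highest on chromosome 3 (45.5%), X (44.2%) and 8 (43.2%), and lowest on chromosomes 22 (24.3%) and 18 (25.5%). Colon placed 5.05% of its enhancer-like regions on assembled chromosomes on chromosome 3, above the 2.98% to 4.45% of the 7 other tissues. It also lay above their range on chromosomes 4 (5.96% against at most 5.74%) and 10 (6.35% against at most 6.20%), and below it on chromosomes 11 (5.20% against at least 5.31%) and Y, which held 5 regions. These were picked from all chromosomes after their values were seen and were not tested.

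Finally, each of the 8 tissues was processed as colon was, and colon was set against the 7 others. Its enhancer-like peaks had the highest replicate overlap of the 8, with 65.0% present in the other replicate on average against 53.8% ± 6.26 (SD, n = 7 tissues, range 44.2% to 61.6%). This average joins the 50.8% of replicate 1 and the 79.2% of replicate 2 given above. Those lists held 23365 and 17479 enhancer-like peaks, so the 2 shares have unlike bases. Its enhancer-like regions were second in median length to those of liver, at 886 bp against a mean of 788.7 ± 63.2 bp. Its H3K4me3 lists were second to those of liver in restricted regions, at 2.67% against 1.37% ± 1.51. In the other 5 measures 2 tissues lay above colon.

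The tissues above colon in these 5 varied. The share of enhancer-like regions that were restricted was 36.2% in colon, 46.6% in skeletal muscle and 41.3% in liver, with a mean of 24.4% ± 14.5 over the 7. The share lying in groups of 3 or more was 46.3% in colon, 49.8% in skeletal muscle and 49.2% in liver. For promoter-like regions the restricted share was 2.85% in colon against 2.12% ± 2.09, for the enhancer-like share of regions it was 42.8% against 38.6% ± 7.02, and for the log2 number of H3K27ac peaks it was 15.21 against 15.07 ± 0.29. None of these 8 differences passed a two-sided exact permutation test of which tissue is colon: p lay between 0.25 for replicate overlap (adjusted p = 0.50) and 0.875 (adjusted p = 0.875), and 8 tissues allow none below 0.125. Apart from replicate overlap, each colon value lay within the range of the other tissues. Without colon H3K27ac replicate 2, every peak of replicate 1 counts. The distance of colon from the mean of the 7 was then 19.05 points for the enhancer-like share. It was 26.3 points for the restricted enhancer-like share and 21.9 points for the grouped share. Without replicate 1 the same distances were 10.995, 13.4 and 21.5 points. In both settings colon alone lost the rule of overlap between replicates, so colon was not compared like for like. With every peak of either replicate they were -0.116, 13.1 and 5.89 points. Whether the place of colon depended on replicate 2 in particular was not tested.

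**Figure D5:**
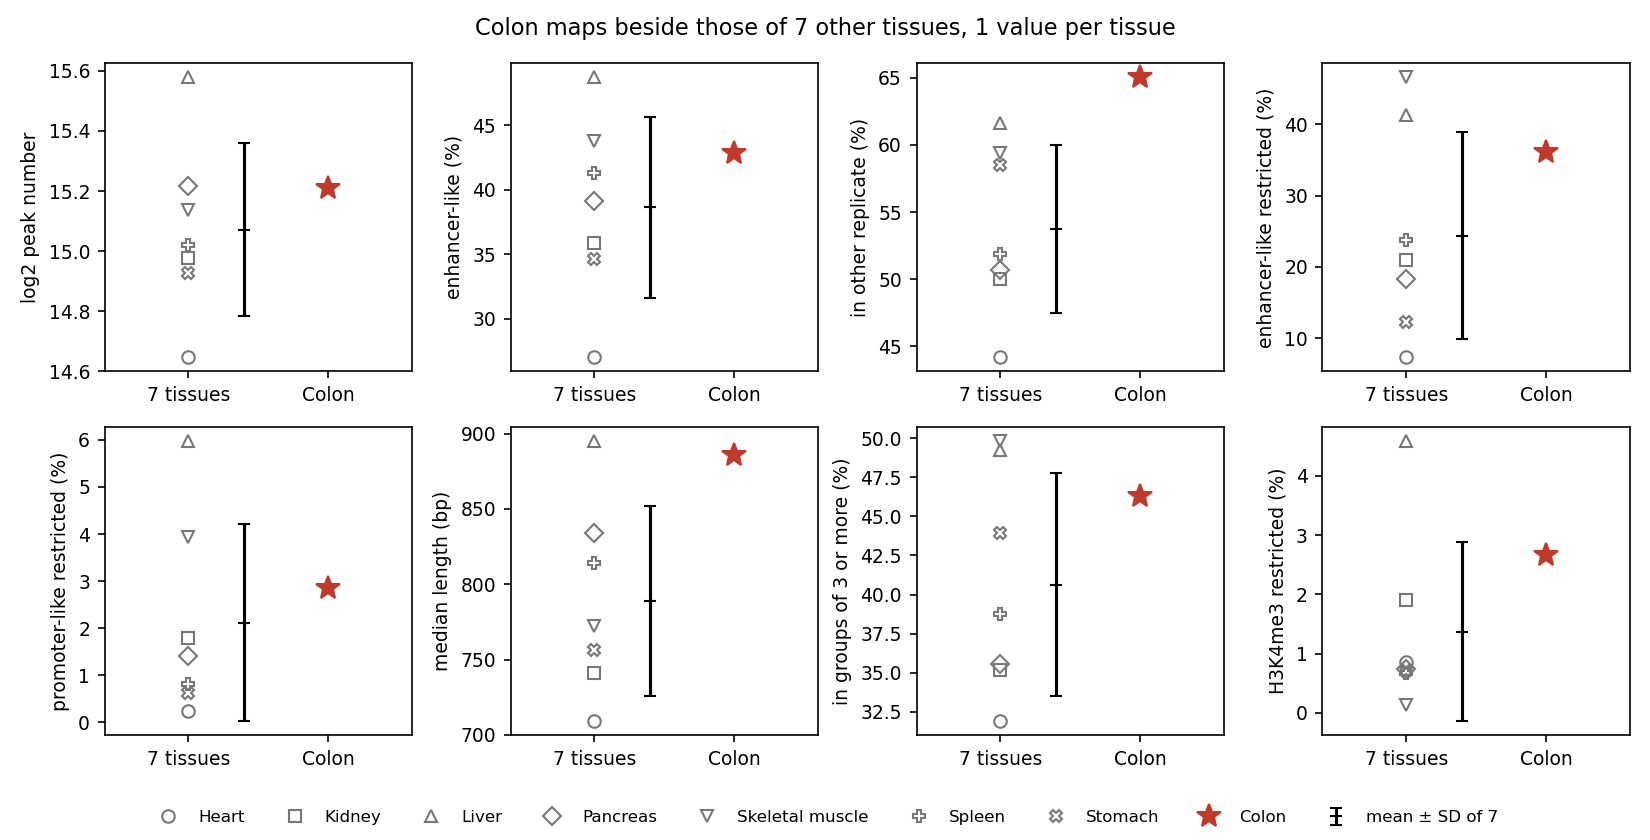
Values for colon (star) and the 7 other tissues (open symbols, with mean ± SD), 1 value per tissue, for 8 measures: log2 number of H3K27ac peaks, enhancer-like share, replicate overlap of enhancer-like peaks, restricted shares of both H3K27ac classes, median enhancer-like length in bp, share in groups of 3 or more, and restricted share of H3K4me3. Vertical axes do not start at 0, and colon lies above all 7 tissues for replicate overlap alone.

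The contrasts within the colon maps had the same direction in the maps of other tissues. Taking each of the 7 others in place of colon, promoter-like regions, longer regions and regions near H3K4me3 were shared more often, with 7 of 7 partner tissues on that side each time. The grouping contrast was above 0 in 5 of 7 partners when liver was taken, and in 7 of 7 for the rest. The contrast of H3K4me3 by acetylation was negative in 6 of 7 partners for spleen and in 7 of 7 for the rest. These contrasts were therefore no property of colon alone. The size of the restricted set depended on the lists: it held 2273 enhancer-like and 242 promoter-like regions with lists of equal length, and without colon H3K27ac replicate 1 or 2, when every peak of the remaining list counts, 6752 or 11906 enhancer-like and 641 or 762 promoter-like regions. Without colon H3K4me3 replicate 2 there were 276 restricted promoter-like regions.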

How the data were processed

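ChIP was carried out with antibodies ab4729 (H3K27ac) and ab8580 (H3K4me3), per the labels. The authors deposited a narrowPeak list for each ChIP library. Tools named, per the submitters' processing notes, are MACS2 2.1.1.20160309, Bowtie 1.1.2, bedtools 2.26 and SAMtools 1.3.1, and their role and order are not given in the sources used here. Of the deposited lists the first 3 columns (chromosome, start and end) were used, and the score, fold, p and q columns were not. Peak names carry calJac3, which was taken as the build. No genome or annotation of that build was used here, so regions are given by position with no genes or sequences, and input samples were not analysed here.

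Titles gave each sample's tissue, mark and replicate. Interval code and the permutation tests were written in Python 3.11.15 on numpy 2.4.6. Plots were made in matplotlib 3.10.9. Regions overlapped where they shared 1 bp or more, joining used gaps of at most 12 kb, and distances run to the nearest reproducible colon H3K4me3 region. Tests were two-sided exact permutation tests over tissues at a threshold of 0.05, with Benjamini-Hochberg adjustment over 14 comparisons, and the code was tested on simulated data. Since the labels do not say that replicates are separate animals, p-values measure the spread between these tissues' lists.

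Regions named were the 5 restricted groups of greatest covered length, the 5 longest restricted regions of each class (promoter-like ones with H3K4me3 in both colon libraries and no other tissue), and the 3 longest shared with stomach alone, absent from colon, or with H3K4me3 and no H3K27ac, on assembled chromosomes. The measures, lists and rules were chosen with earlier results of these data known. Alternatives covered overlap, list length, region width, evidence for H3K4me3, reproducibility, joining and distance limits, left-out libraries and replicate numbers. A further one, leaving out enhancer-like regions with H3K4me3 in another tissue, was chosen after seeing the data.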

Additional observations from a re-analysis of the deposited data

How the results depend on the processing

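The 5 differences over tissues that passed kept their direction and passed under each setting run, though many left-out libraries do not enter a given value, and the comparisons of a single tissue with the others cannot pass under any. The class difference lay between -64.4 and -57.2 points, the length difference between 3.23 and 8.48, the distance difference between 8.67 and 16.2, the grouping difference between 2.51 and 6.69, and the H3K4me3 difference between -26.0 and -12.3, with exact permutation p of at most 0.0312. The restricted counts moved: enhancer-like regions numbered 2273 with lists of equal length and 13063 with every peak of either replicate, and promoter-like ones 242, 814 and, with H3K4me3 in every library or none, 216. Leaving out each library in turn gave 3983 to 11906 and 276 to 762, and moved colon's distance from the 7 tissues to 1.14 to 19.05 points for the enhancer-like share, 8.96 to 26.3 for the restricted enhancer-like share, 2.91 to 21.9 for the grouped share, -0.0617 to 2.28 points for the restricted promoter-like share, -314.7 to 156.1 bp for median enhancer-like length and -0.233 to 6.27 points for the restricted H3K4me3 share. Some differences of colon from the 7 tissues, none of which passed its test, turned sign: the enhancer-like share was -0.116 points with every peak of either replicate, the restricted promoter-like share -0.0617 without colon H3K4me3 replicate 2, the grouped share -0.242 with lists of equal length, and the restricted H3K4me3 share -0.233 without skeletal muscle H3K4me3 replicate 1. Median enhancer-like length was -314.7 or -252.7 bp without colon H3K27ac replicate 1 or 2, where the peaks of a lone list replace merged regions by construction. The other causes were not tested.

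Replicate numbers are shared across tissues in the labels. Deviations of same-numbered replicates from their tissue means in 100 kb windows correlated at 0.00255 to 0.0879 between colon and the 7 tissues, too weak to take the numbers as pairing the samples. All 7 were positive, and same-numbered lists had the higher mean Jaccard index with colon in 7 of 7 tissues for H3K27ac and in 6 of the 6 with 2 libraries for H3K4me3, a hint from the data and not from the design. With the replicate block the class difference was -60.5 points, length 8.06, distance 13.4, grouping 3.61 and H3K4me3 -22.9, each with exact permutation p = 0.0156, stomach stood 13.3 points above the 6 others, and restricted counts averaged 10984.5 and 752.5. Peak number was not compared with lists of equal length, where it is fixed by construction, and no stricter call threshold was tried, since score, p and q columns were not used. Read depth is unknown, so absence of a peak was not bounded.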

Other observations

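Enhancer-like peaks found in a single colon replicate form a further body of colon regions that the reproducible set leaves out. Replicate 1 had 11485 such peaks (49.2% of its enhancer-like peaks) and replicate 2 had 3630 (20.8%), against 33.8% to 61.1% in the 14 other H3K27ac libraries. They were short, with medians of 418 and 374 bp, where peaks found in both replicates had 734 and 516 bp. Of those in replicate 1 alone, 34.1% were acetylated in another tissue, below the 37.6% to 78.3% of the other 14 libraries, whereas of those in replicate 2 alone 58.3% were. Peaks found in both replicates were acetylated in another tissue in 63.5% and 62.2% of cases. Of these 4 sets of enhancer-like peaks, those of replicate 1 alone were the least often found in other tissues.

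Group size had an uneven top end. The restricted share of enhancer-like regions was 40.2% for regions standing alone, 37.9% in pairs, 33.5% in groups of 3 or 4 and 31.6% in groups of 5 to 9. In the 6 groups of 10 or more, which held 42 enhancer-like regions, it was 26.2%, and the share found in stomach was 38.1% against 42.6% in groups of 5 to 9.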
